A study of Rattus norvegicus with 18 samples.

Results

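Interferon-stimulated genes are transcribed when a cell receives an interferon signal. The 10 genes described here, *Herc6*, *Ifit2*, *Ifit3*, *Isg15*, *Mx1*, *Mx2*, *Irf7*, *Usp18*, *Slfn5* and *Ms4a4c*, were taken by gene name from the 32882 genes of each of 3 rat tables of normalized counts. They were selected on their fold changes between KO and control cells in these tables and their levels in control cells. Their fold changes and levels below are therefore a description, with no test of their own.

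RNA of T_MBP cells, rat CD4+ T cells that recognize myelin basic protein and cause experimental autoimmune encephalomyelitis after transfer into Lewis rats, was measured by 3′ mRNA-seq in 18 libraries on day 3 after transfer. In 1 experiment *Ets1*-KO cells and control cells were isolated from the spinal cord parenchyma, in another from the spleen, and in the last *Grk2*-KO cells and control cells were isolated from the spleen, with 3 libraries per group. ETS1 is a transcription factor and GRK2 a kinase that phosphorylates activated G-protein-coupled receptors. The comparisons ask how loss of either protein changed the transcriptome of T cells inside the host animal.

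All cells were restimulated with myelin basic protein in culture before transfer. The KO cells had received CRISPR ribonucleoproteins against *Ets1* or *Grk2*, expressed GFP and were sorted by it, and the control cells (NT) had received a non-targeting guide, expressed BFP and were sorted by that. Colour and genotype therefore cannot be told apart. The KO cells were pools sorted by colour and not by their edit. Lewis rats of both sexes, aged 5 to 20 weeks in the study as a whole, were used, with no age given by group. The labels do not say which libraries came from 1 animal or whether replicates were separate animals, so that no error covers more than these libraries. The SDs are the spread between them. The SEs are those of limma, which takes the variance wholly or mostly from all genes tested at a similar level. An SE can therefore be smaller or larger than the spread of a gene's own pairs.

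The libraries held between 898092 and 2248258 reads on genes. In the spleen *Ets1* experiment the KO libraries were deeper, with 1909862 to 2248258 reads against 898092 to 1213485 in the controls. The summed level of the 12 T cell markers was 5101 normalized counts or more in every library, and none of these markers was called in any comparison. *Grk2* mRNA was 166, 166 and 142 normalized counts in the controls and 53.3, 64.2 and 87.3 in the *Grk2*-KO libraries (log2 fold change −1.22, SE 0.13, limma, Benjamini-Hochberg adjusted p = 1.76e-12). *Ets1* mRNA was 2400.2 ± 150.03 in controls and 2551 ± 183 in KO cells of the parenchyma and 2077 ± 135 and 2000.1 ± 324 in the spleen (SD, n = 3), so that at the level of 3′ reads the *Ets1* label has no check here. Per the methods, KO efficiency of the single-KO lines was assessed by sequencing of the edited DNA before the experiment. The study also ran a western blot of ETS1 protein in control and *Ets1*-KO cells.

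Type I interferons bind the receptor pair IFNAR1 and IFNAR2, which signals through the kinases JAK1 and TYK2 to a transcription factor complex that holds STAT2 and IRF9. This complex binds the interferon-stimulated response element (ISRE) in promoters, while interferon-γ acts through the GAS element. Most products of these genes restrict viruses, and others, such as USP18, dampen the signal itself, and T cells are among the cells that respond to interferon in this way.

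All 10 genes are protein-coding in the annotation of the files (Rnor_6.0), and some are neighbours. *Ifit2* (chr1:252894662-252900726) and *Ifit3* (chr1:252906233-252911382) lie side by side on the plus strand, and *Mx1* (chr11:37891155-37914983, minus) lies near *Mx2* (chr11:38035449-38059950, plus). *Irf7* (chr1:214248836-214252456, minus) and *Ms4a4c* (chr1:227640679-227661311, plus) are on the same chromosome as the Ifit genes. *Herc6* (chr4:88607517-88649216, minus) and *Usp18* (chr4:153805992-153834430, plus) share another chromosome, and *Isg15* (chr5:173624309-173626248, minus) and *Slfn5* (chr10:70298518-70312070, plus) stand alone.

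The promoters of the genes were read from RefSeq (GRCr8), as windows from 250 bases before to 50 bases after each annotated start, because genes that answer to 1 transcription factor may share its letters. Windows were found for 6 of the 10 genes, *Slfn5* with 2 windows, and not for the other 4 (*Ifit2*, *Isg15*, *Mx2* and *Usp18*). The ISRE core, spelled as GAAA, any 2 bases and GAAA and searched on both strands, was in 3 of these 6 genes, *Ifit3*, *Irf7* and *Slfn5*, against 3.92% of all 33469 rat windows. In *Slfn5* it was in the second of the 2 windows, just after the annotated transcription start. It was in 54 of 135 windows (40%) of the other interferon pathway genes listed for this work. The GAS letters TTCNNNGAA were in 0 of the 7 windows against 8.87% of all windows, and the ETS letters CCGGAAGT in 0 of 7 against 3.81%. Letters of an ISRE and a GAS match can overlap. A match is not a shown binding site, and a missing match says only that these letters are not in this window.

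The stretches with the ISRE letters in capitals are shown for 2 of the 10 genes and for *Samd9*, *Eif2ak2* and *Gbp4*, which are pathway genes outside the 10 that were lower in *Grk2*-KO cells. Each is given 5′ to 3′ on the strand of its gene and ends before the start. TTTC at an end of the capitals marks a match on the opposite strand.
*Ifit3*, chr1:241527257-241527316, plus strand: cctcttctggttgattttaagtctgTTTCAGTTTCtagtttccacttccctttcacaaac
*Irf7*, chr1:205800058-205800117, minus strand: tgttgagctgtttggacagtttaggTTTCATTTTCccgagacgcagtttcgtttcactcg
*Samd9*, chr4:32138959-32139019, minus strand: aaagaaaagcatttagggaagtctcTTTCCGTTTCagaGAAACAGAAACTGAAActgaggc
*Eif2ak2*, chr6:21941113-21941153, plus strand: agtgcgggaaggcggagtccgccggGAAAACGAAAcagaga
*Gbp4*, chr2:233978451-233978485, plus strand: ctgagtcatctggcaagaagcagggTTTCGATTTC
*Samd9* had 3 matches, 2 of which overlap, and *Eif2ak2* and *Gbp4* had 1 each, close to the start.

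In spleen T_MBP cells, all 10 genes were lower on average in *Grk2*-KO cells than in controls. The median log2 fold change, on log2(normalized count + 1), was −0.60 with a range from −1.90 (*Herc6*) to −0.04 (*Ifit3*), against a median of 0.02 over all genes tested. A gene was tested if its mean over the 6 libraries of a table was at least 10 normalized counts, which 9 of the 10 passed. It was called at an adjusted p under 0.05. *Ifit2*, *Ms4a4c* and *Usp18* had means of 9.54, 8.88 and 6.53 in KO cells, so that they passed the minimum through the controls alone. The median ratio of the 10 genes was −0.62, −0.81 and −0.54 in the 3 replicate pairs. By limma, 6 of the 10 were called lower, against 0.630% of all genes tested, and since these values chose the genes nothing follows from that count. In bulk samples, fewer cells with a transcript and less RNA per cell cannot be told apart.

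*Herc6*, an E3 ligase that attaches ISG15 to proteins in rodents, had 30.3, 52.1 and 55.7 normalized counts in the controls and 7.86, 6.21 and 27.3 in *Grk2*-KO cells. All 3 KO libraries were below all controls, with the third KO library closest to them. Its mean was 46.0 ± 13.7 in controls and 13.8 ± 11.7 in KO cells (SD, n = 3), which on the fitted scale was 3.74-fold lower (log2 −1.90, SE 0.28). *Usp18*, which removes ISG15 and also blocks IFNAR2, had 9.76, 14.4 and 23.3 in controls and 3.49, 5.18 and 10.9 in KO cells. Its groups overlapped in 1 KO library, yet it was lower in each of the 3 pairs (log2 −1.20, SE 0.39). *Isg15*, the ubiquitin-like modifier itself, had 108, 139.7 and 177 in controls and 77.7, 84.9 and 119 in KO cells (log2 −0.58, SE 0.13). Here too only the third KO library reached into the range of the controls.

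The antiviral effectors differed in size. *Ifit2*, which binds RNA and restricts virus translation, had 14.1, 22.2 and 26.3 normalized counts in controls and 5.24, 5.18 and 18.2 in *Grk2*-KO cells (log2 −1.23, SE 0.35). The third KO library lay within the controls and the other 2 below them. *Ifit3*, a partner of IFIT2 in that complex, was at 1.01 to 4.43 in controls and 0.873 to 4.55 in KO cells, or 7 reads against 8 in all, too few to show a difference. *Mx2*, a dynamin-like GTPase, had 61.8, 96.4 and 136 in controls and 51.5, 54.9 and 78.2 in KO cells (log2 −0.62, SE 0.15). *Mx1*, its paralog, had 647, 797 and 934 in controls and 693, 601 and 716 in KO cells (log2 −0.23, SE 0.08). Its first pair went the other way and the other 2 were lower.

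*Slfn5*, of the Schlafen family, had 639.5, 924 and 1069.5 normalized counts in controls and 597, 716 and 828 in *Grk2*-KO cells (log2 −0.28, SE 0.07). Most of this shift came in the second and the third pair, at −0.37 each, against −0.10 in the first. *Irf7*, the transcription factor that amplifies type I interferon production, had 8.67, 15.5 and 18.2 in controls and 6.99, 10.4 and 20.01 in KO cells (log2 −0.23, SE 0.35), groups that overlapped widely. *Ms4a4c*, a membrane protein of the MS4A family, had 17.3, 21.1 and 26.3 in controls and 8.73, 5.18 and 12.7 in KO cells. Its KO libraries were all below its controls (log2 −1.25, SE 0.34). *Herc6* and *Ms4a4c* were the 2 of the 10 genes whose groups did not overlap in this direction, against 4.62% of all genes tested, and 7 of the 10 were lower in all 3 pairs, against 13.6%. *Ms4a4c*, and among the 7 also *Ifit2* and *Usp18*, passed the minimum through the controls alone. Since these values chose the genes, nothing follows from these counts.

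**Figure D1:**
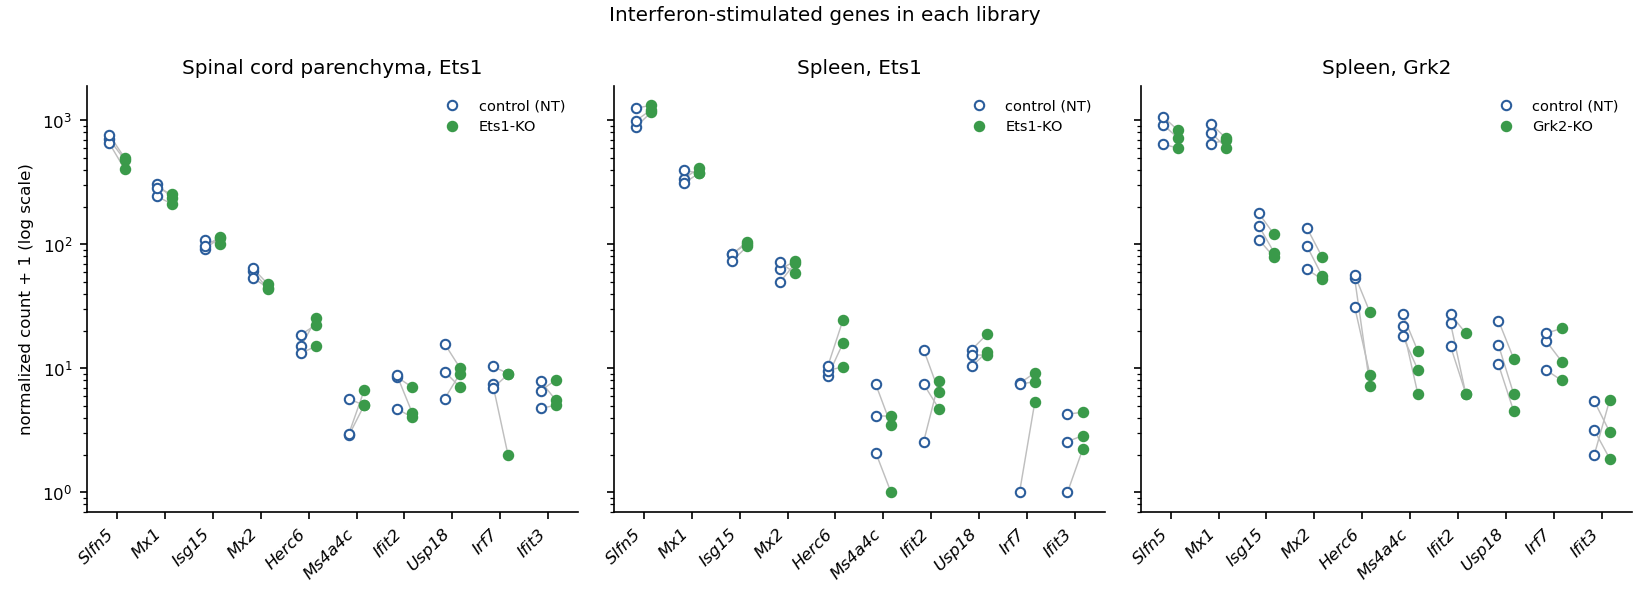
Normalized count + 1 (log axis) of the 10 genes in the 18 libraries, with controls as open and KO libraries as filled circles and lines joining libraries of the same replicate number. In the right panel *Herc6* and *Ms4a4c* are the genes whose *Grk2*-KO libraries all lie below the controls, and in the left panel *Slfn5* and *Mx2* have all *Ets1*-KO libraries below.

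How many of the 10 genes were called in the *Grk2* experiment depended on the pairing of the libraries and on single pairs. Without the replicate block, which compares libraries of the same number, 1 of the 10 genes was called instead of 6, while the fold changes were the same. With the second pair left out, 0 of the 10 were called by limma and the median log2 fold change was −0.52. With the first or the third pair left out, 5 and 2 were called, and the medians were −0.72 and −0.69. DESeq2 called 0 and edgeR 5.

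The other genes of the interferon pathway were counted from 8 lists with 170 symbols, of which 150 were in the tables. These lists were chosen with earlier results of these data known. The shares of their genes, here and in the other comparisons, are therefore a description and no independent support. In the *Grk2* experiment 105 of them were tested, 11 were lower and 0 higher in KO cells by limma, which is 10.5% called lower against 0.630% of all genes. Of the 105, 77 had a lower mean, and the median log2 fold change was −0.15 against 0.02 over all genes. For 12 of them (11.4%) all KO libraries were below all controls, against 4.62% of all genes. None of the 105 was called without the replicate block (19 at an unadjusted p under 0.05), with DESeq2 (12) or without the second pair (16), and edgeR with the block called 12, all lower.

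Of these 11 genes, 8 were in the list of other interferon-stimulated genes (53 tested), and 1 each among the nucleic acid sensors, the IRF family and the interferon-γ-induced genes. The 6 largest falls were in the following genes. *Gbp4*, a guanylate-binding GTPase, fell from 70.5, 75.4 and 114 to 48.0, 50.7 and 62.8 normalized counts (log2 −0.65, SE 0.16, limma, Benjamini-Hochberg adjusted p = 0.00946), without overlap. *Zbp1*, a sensor of Z-form nucleic acids that can start necroptosis, fell from 183 ± 40.8 to 124 ± 26.7 (SD, n = 3; log2 −0.56, SE 0.11, limma, Benjamini-Hochberg adjusted p = 0.000480). *Rtp4*, a chaperone that also inhibits flaviviruses, fell from 186 ± 53.3 to 128 ± 24.2 (SD, n = 3; log2 −0.51, SE 0.11, limma, Benjamini-Hochberg adjusted p = 0.00247). The groups of *Zbp1* and *Rtp4* overlapped, and each gene was lower in all 3 pairs.

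*Eif2ak2*, the double-stranded RNA-activated kinase PKR, fell from 155, 174 and 208 to 110.0, 116 and 160.1 (log2 −0.48, SE 0.11, limma, Benjamini-Hochberg adjusted p = 0.00462). *Irf2*, a transcription factor that competes with IRF1 for the same elements, fell from 167, 163 and 188 to 127, 126 and 125 (log2 −0.45, SE 0.11, limma, Benjamini-Hochberg adjusted p = 0.0126), and its KO libraries were all below the controls. *Samd9*, an antiviral factor against poxviruses, fell from 165, 211 and 258 to 147, 127 and 187 (log2 −0.45, SE 0.11, limma, Benjamini-Hochberg adjusted p = 0.00650). Of the 11 called genes, 8 had a RefSeq window and 5 of these held the ISRE letters.

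The upstream genes named here were not called in *Grk2*-KO cells. *Stat2* was 105 ± 19.2 normalized counts in controls and 88.4 ± 14.2 in KO cells (SD, n = 3), with a limma adjusted p of 0.523 (Benjamini-Hochberg). *Irf9* was 31.7 ± 1.47 and 34.5 ± 4.85, *Ifnar1* 137 ± 9.78 and 142 ± 12.1, and *Ifnar2* 31.9 ± 5.22 and 26.2 ± 9.48. *Jak1*, *Tyk2* and *Irf1* had log2 fold changes of −0.09, −0.01 and 0.15. A p above the threshold does not show that these genes did not differ. Of the 11 interferon genes, which encode the ligands, 0 passed the minimum in this table, and *Ifng* was at 2.02 to 5.42 in controls and 1.04 to 4.55 in KO cells.

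Markers of myeloid cells, plasmacytoid dendritic cells and B cells were at low counts in this experiment. The 14 myeloid markers summed to 1.01 to 1.11 normalized counts in the control libraries and 3.64 to 7.86 in the *Grk2*-KO libraries, with 6 of the 14 at 0 throughout. The plasmacytoid dendritic cell markers summed to 0 in the controls and at most 0.910 in KO cells. B cell markers were at 4.05 to 5.42 and 2.62 to 6.21. The 9 oligodendrocyte and microglia markers summed to 154 to 189 in the controls and 171 to 188 in KO cells, with 4 of the 9 (*Mag*, *Mobp*, *Mog* and *Sall1*) at 0 throughout.

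In the spinal cord parenchyma the 10 genes had means both above and below the controls in *Ets1*-KO cells. Their median log2 fold change was −0.19 against −0.03 over all genes tested, 7 were lower and 3 higher, and 5 passed the minimum. By limma *Slfn5* alone of the 5 tested was called lower, against 2.96% of all genes tested. Of the 5, 3 were lower in all 3 pairs, against 20.9% of all genes tested. *Ifit2*, under the minimum, was also lower in all 3 pairs. The median ratio of the 10 genes was −0.22, −0.16 and −0.30 in the 3 pairs.

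*Slfn5* had 703, 655 and 767 normalized counts in the parenchyma controls and 481, 405 and 498 in *Ets1*-KO cells. The groups did not overlap, and the mean was 708 ± 56.2 against 461 ± 49.2 (SD, n = 3; log2 −0.62, SE 0.09, or 1.54-fold lower). *Mx2* also had no overlap, with 59.8, 52.7 and 62.9 in controls and 42.5, 43.5 and 46.5 in KO cells (log2 −0.39, SE 0.20). These were the 2 of the 10 genes with all KO libraries below, against 10.5% of all genes. *Mx1*, with 243, 304 and 285 against 209, 236 and 252, was lower in each pair but overlapped in 1 KO library (log2 −0.25, SE 0.11).

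*Isg15* and *Herc6* had higher means in *Ets1*-KO cells, with groups that overlapped. *Isg15* had 91.5, 108 and 96.3 in the parenchyma controls and 112, 99.1 and 113 in *Ets1*-KO cells (log2 0.13, SE 0.14). *Herc6* had 14.0, 12.2 and 17.7 and then 24.3, 14.2 and 21.5 in KO cells, higher in all 3 pairs (log2 0.41, SE 0.32). *Usp18*, *Irf7*, *Ifit2*, *Ifit3* and *Ms4a4c* were below the minimum, at 1.01 to 14.7 normalized counts in the single libraries, and their fold changes rest on 9 to 29 reads per group.

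Of the other pathway genes, 106 were tested in the parenchyma, where 7 were lower and 2 higher by limma. The lower calls were 6.60% of the 106, against 2.96% of all genes, and the higher calls 1.89%, against 2.27%. As the lists were chosen with earlier results known, these shares are a description. The median was −0.19 against −0.03, 82 of the 106 had a lower mean, and for 25 of them (23.6%) all KO libraries were below all controls, against 10.5% of all genes. Without the replicate block 5 of the pathway genes were called, 3 of them lower. DESeq2 called 3, of which 2 were higher and 1 lower, and limma without a variance trend called 0 (23 at an unadjusted p under 0.05).

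*Stat2*, which carries the signal to the nucleus, had 206, 172 and 239 normalized counts in the parenchyma controls and 149.6, 122 and 193 in KO cells (log2 −0.42, SE 0.12, limma, Benjamini-Hochberg adjusted p = 0.0113). Its groups overlapped, and the fall was seen in each of the 3 pairs.

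Among the effectors, *Oasl2*, an oligoadenylate synthetase-like protein, fell from 155, 153 and 188 to 101, 106 and 121 in the parenchyma (log2 −0.59, SE 0.13, limma, Benjamini-Hochberg adjusted p = 0.000381). *Lgals9*, which encodes the lectin galectin-9, fell from 43.8 ± 0.719 to 24.4 ± 7.30 (SD, n = 3; log2 −0.85, SE 0.24, limma, Benjamini-Hochberg adjusted p = 0.0116). *Aim2*, a sensor of cytosolic DNA, fell from 63.8 ± 3.06 to 40.7 ± 14.8 (SD, n = 3; log2 −0.70, SE 0.20, limma, Benjamini-Hochberg adjusted p = 0.0120). These 3 genes had no overlap between the groups. *Rnf213*, a large E3 ligase with antimicrobial activity, fell with overlap, from 138 ± 23.4 to 101 ± 21.1 (SD, n = 3; log2 −0.45, SE 0.14, limma, Benjamini-Hochberg adjusted p = 0.0229).

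*Myd88* and *Ifitm1* rose. *Myd88*, the adaptor of Toll-like and interleukin-1 receptors, had 222, 308 and 239.8 in controls and 349.8, 402 and 391 in KO cells (log2 0.58, SE 0.10, limma, Benjamini-Hochberg adjusted p = 7.20e-07). *Ifitm1*, which blocks virus entry, rose from 1312 ± 44.3 to 1705 ± 118 (SD, n = 3; log2 0.38, SE 0.07, limma, Benjamini-Hochberg adjusted p = 1.78e-05). *Ifng* was 68.2, 45.1 and 32.4 in controls and 67.7, 61.7 and 57.8 in KO cells and was not called (log2 0.42, SE 0.19). *Ifnar1*, *Ifnar2*, *Jak1*, *Tyk2*, *Irf9* and *Irf1* were not called either, with log2 fold changes between −0.28 and 0.12.

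Myeloid markers summed to 29.2 to 59.95 in the parenchyma controls and 54.6 to 73.8 in *Ets1*-KO cells, and the list of oligodendrocyte and microglia markers to 165 to 167 and 125 to 137. Only 1 of the 14 myeloid and 2 of the 9 oligodendrocyte and microglia markers passed the minimum, and the others could not be called. None of those tested was called, and the part of these markers in the differences was not tested.

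**Figure D2:**
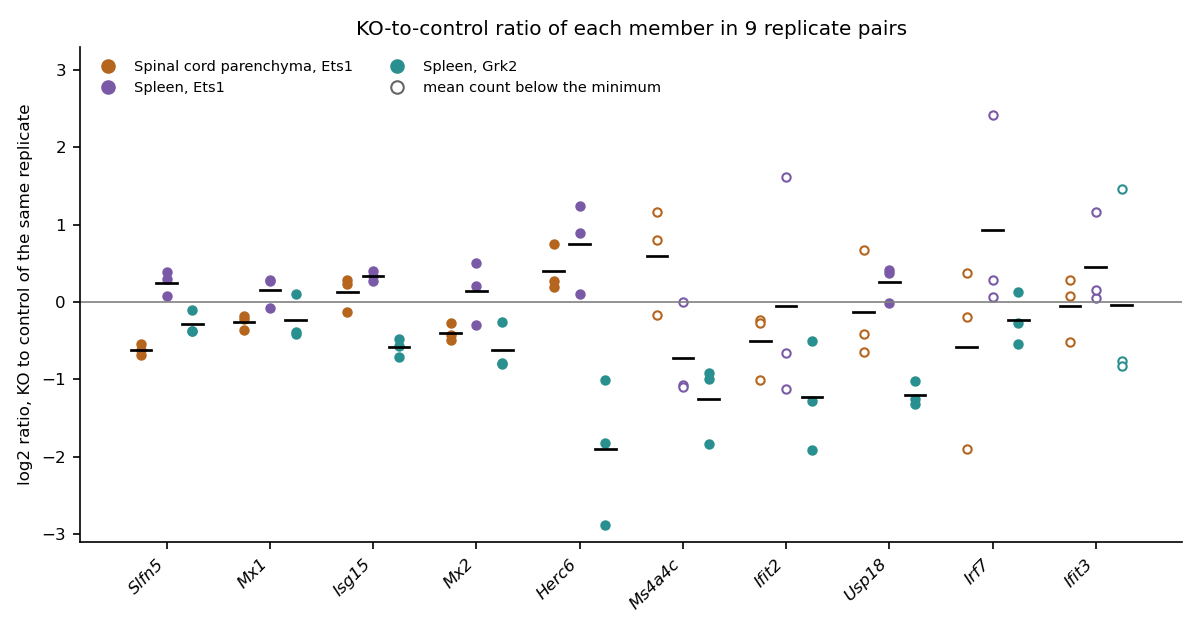
Log2 ratio of KO to control, on normalized count + 1, for each of the 10 genes in the 9 replicate pairs, with the mean as a bar and open circles for genes under the minimum in that table. *Herc6* lies highest in the spleen *Ets1* experiment among the filled symbols (mean 0.75), where it passed the minimum through the KO libraries alone. It lies lowest in the *Grk2* experiment (mean −1.90). The 3 *Slfn5* ratios lie below 0 in the parenchyma and above 0 in the spleen of the *Ets1* experiments.

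In the spleen the 10 genes were mostly higher in *Ets1*-KO cells. The median log2 fold change was 0.26 against 0.00 over all genes, 8 were higher and 2 lower, and 6 passed the minimum. By limma 0 of the 6 tested were called, against 2.22% of all genes tested. Of the 10, 5 were higher in all 3 pairs, against 17.0% of all genes tested. Among these 5, *Ifit3* and *Irf7* were under the minimum, so that the share does not cover them. *Herc6*, also 1 of the 5, had a mean of 8.55 in controls and passed the minimum through the KO libraries alone. The pair medians were 0.29, 0.09 and 0.33.

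*Isg15* was the 1 gene of the 10 without overlap, with 82.0, 82.8 and 72.1 normalized counts in the spleen controls and 104, 100.5 and 95.5 in *Ets1*-KO cells (log2 0.34, SE 0.16). For comparison, 8.04% of all genes had all KO libraries above all controls. *Herc6* had 7.66, 8.61 and 9.40 in controls and 15.1, 9.30 and 23.7 in KO cells (log2 0.75, SE 0.41). It was higher in all 3 pairs, by little in the second. *Slfn5*, lower in the parenchyma, had 890.4, 995 and 1255 in the spleen controls and 1163, 1219 and 1320.1 in KO cells (log2 0.25, SE 0.11). These groups overlapped, and each of the 3 pairs was higher.

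*Mx1* had 338, 395 and 310.3 in the spleen controls and 412, 373 and 376 in *Ets1*-KO cells (log2 0.16, SE 0.12). *Mx2* had 62.4, 48.4 and 70.5 and then 71.9, 69.5 and 57.4 (log2 0.14, SE 0.20). Both had 1 pair in the opposite direction. *Usp18* had 13.1, 11.8 and 9.40 and then 17.8, 11.8 and 12.5 (log2 0.26, SE 0.38). *Ifit2*, *Ifit3*, *Irf7* and *Ms4a4c* had at most 13.1 normalized counts in any library, and *Ifit3* and *Irf7* in 1 control library each and *Ms4a4c* in 1 KO library had no read.

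Of the other pathway genes 102 were tested in the spleen *Ets1* experiment, of which 3 were higher and 0 lower by limma (14 at an unadjusted p under 0.05 in either direction). The higher calls were 2.94% of the 102, against 1.02% of all genes, again a description, as the lists were chosen with earlier results known. The median was 0.05 against 0.00, and 59 of the 102 had a higher mean. *Mlkl*, the executor of necroptosis, had 3.28, 5.38 and 4.70 normalized counts in controls and 21.9, 16.1 and 28.1 in KO cells (log2 2.07, SE 0.43). Its controls had a mean of 4.45, so that it passed the minimum through the KO libraries alone, and without it 2 pathway genes were called higher. *Ifi27l2b*, of the IFI27 family, rose from 749 ± 75.7 to 1141 ± 97.0 (SD, n = 3; log2 0.61, SE 0.11, limma, Benjamini-Hochberg adjusted p = 0.00390). *Ikbke*, a kinase that phosphorylates IRF3 and IRF7, rose from 80.8 ± 17.0 to 124 ± 30.0 (SD, n = 3; log2 0.61, SE 0.16, limma, Benjamini-Hochberg adjusted p = 0.0484). These 3 genes had no overlap between the groups. With the first pair left out, 0 pathway genes were called (6 at an unadjusted p under 0.05), and DESeq2 called 1.

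*Stat2* was 174 ± 8.89 normalized counts in controls and 196 ± 25.1 in KO cells of this experiment (SD, n = 3), with a limma adjusted p of 0.637 (Benjamini-Hochberg). *Ifng* was under the minimum, at 6.27 to 7.66 in controls and 8.06 to 14.4 in KO cells. Myeloid markers summed to 9.84 to 10.97 in controls and 4.96 to 13.7 in KO cells. The deeper KO libraries of this experiment hold more reads per gene for the low genes, such as 75 for *Herc6* against 21 in controls.

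**Figure D3:**
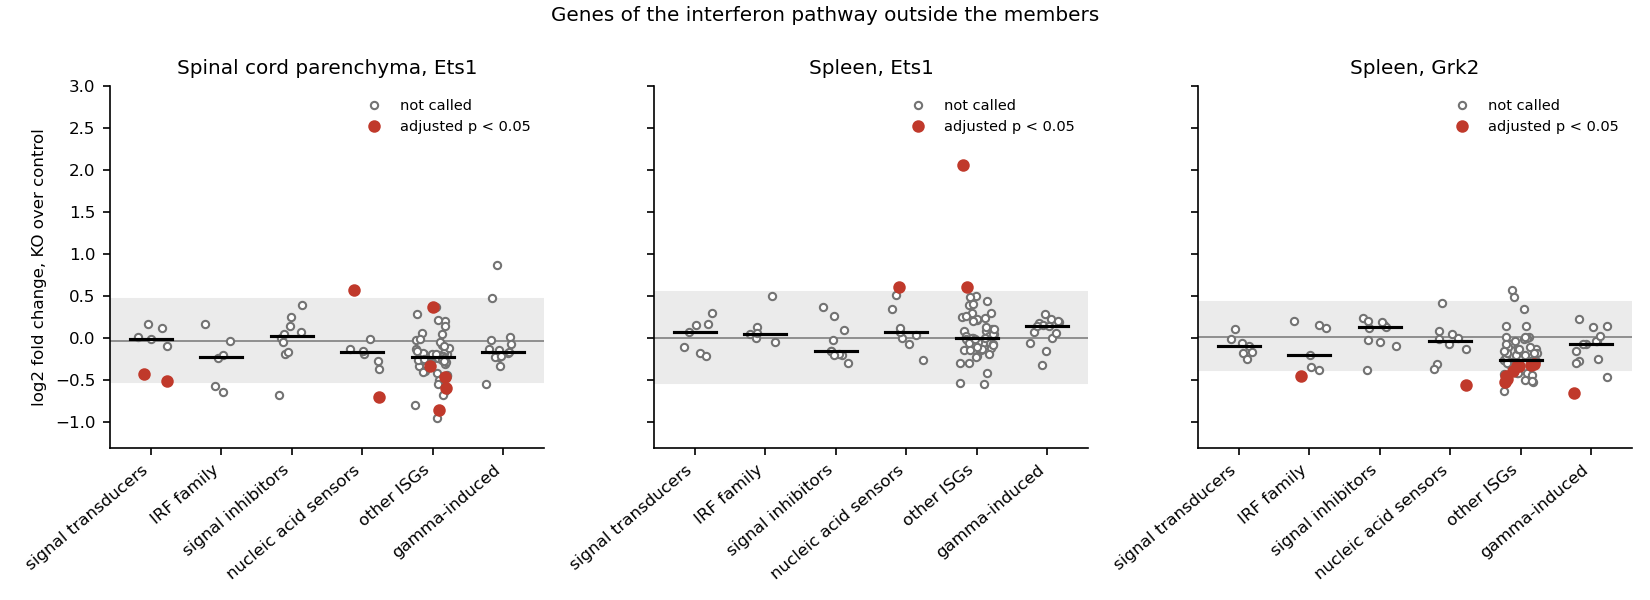
Log2 fold change of the tested pathway genes outside the 10, by list, in the 3 experiments, with genes past the adjusted p of 0.05 in red, the list median as a black bar, the median of all genes as a grey line and the 5th to 95th percentile of all genes as a grey band. Interferons and their receptors are left out as few were tested. The *Grk2* panel has 11 red points, all below 0, and the parenchyma panel 7 below and 2 above.

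Whether the effect of *Ets1* deletion differed between the tissues was tested on the ratio of each pair, 3 in the parenchyma and 3 in the spleen, for the pathway genes outside the 10. Of 99 genes tested, 5 differed by limma, all more negative in the parenchyma, or 5.05% against 1.43% of all genes in that direction and 2.10% in either. The lists were chosen with earlier results of these data known, so that this share is a description. The experiments of the 2 tissues were normalized separately, and tissue, experiment and cell isolation cannot be told apart.

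*Ifi27l2b* differed by −0.80 (SE 0.14, limma, Benjamini-Hochberg adjusted p = 0.000381), with ratios of −0.33, −0.20 and −0.06 in the parenchyma and 0.85, 0.54 and 0.44 in the spleen. *Rtp4* differed by −0.88 (SE 0.22, limma, Benjamini-Hochberg adjusted p = 0.0230), *Slfn4*, of the Schlafen family, by −0.49 (SE 0.13, limma, Benjamini-Hochberg adjusted p = 0.0375), and *Mlkl*, which in the spleen passed the minimum through the KO libraries alone, by −2.33 (SE 0.49). Without *Mlkl* 4 pathway genes differed. In *Ifi27l2b*, *Rtp4* and *Slfn4* each parenchyma pair was below 0 and each spleen pair above it. Leaving out single pairs gave between 1 and 8 called pathway genes.

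Among the 10 genes, 5 could be set side by side in this way, with no test. *Slfn5* had ratios of −0.55, −0.69 and −0.62 in the parenchyma and 0.38, 0.29 and 0.07 in the spleen, a difference of −0.87 (SE 0.13). *Mx2* had −0.48, −0.27 and −0.43 against 0.20, 0.51 and −0.29, and *Mx1* −0.21, −0.37 and −0.18 against 0.29, −0.08 and 0.28. *Isg15* had 0.29, −0.13 and 0.23 against 0.34, 0.28 and 0.40, and *Herc6* 0.75, 0.20 and 0.27 against 0.89, 0.10 and 1.25. In the spleen *Herc6* passed the minimum through the KO libraries alone. *Slfn5* was the 1 gene of the 5 whose ratios had opposite signs in all pairs of both tissues.

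**Figure D4:**
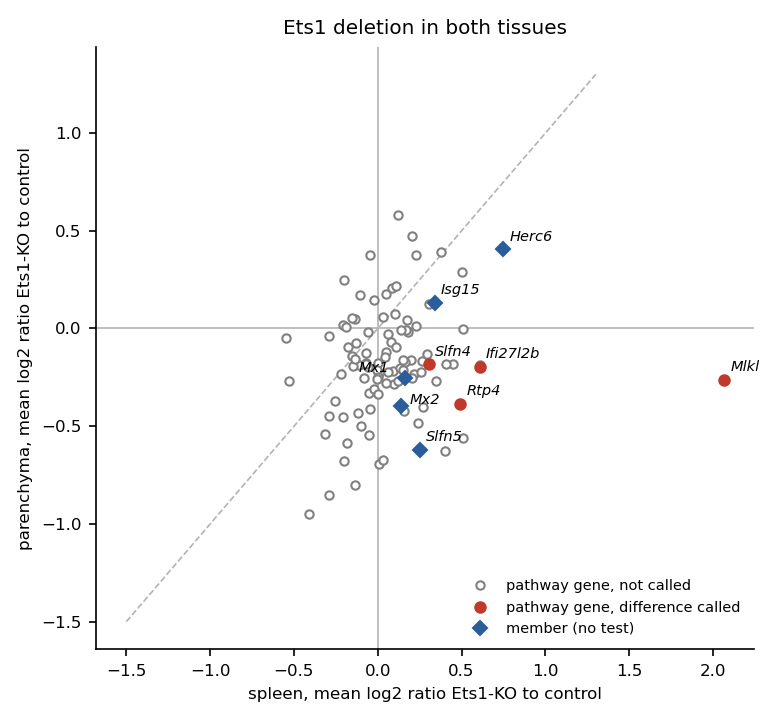
Mean log2 ratio of *Ets1*-KO to control over 3 pairs in the spleen (x axis) and in the parenchyma (y axis) for 98 pathway genes (circles, red where the difference between the tissues had an adjusted p under 0.05) and 5 of the 10 genes (blue diamonds), with the line of equal ratios dashed. The 4 red genes lie below the dashed line, and *Slfn5* lies at 0.25 in the spleen and −0.62 in the parenchyma.

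The level of the 10 genes in control cells was compared as CPM (reads of the gene as a share of all reads on genes of the library, scaled to a common total), gene by gene, over 3 libraries of each control group. The order of the groups is given as a description, since experiment and tissue cannot be told apart.

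*Herc6* was 35.3 ± 10.0 CPM (SD, n = 3) in the spleen controls of the *Grk2* experiment, 10.3 ± 2.07 in the parenchyma and 6.37 ± 0.521 in the spleen controls of the *Ets1* experiment, with no overlap between neighbours. *Isg15* came in the same order, at 109 ± 24.2, 69.4 ± 4.54 and 59.0 ± 6.87, also without overlap. *Mx1* was 608 ± 98.2 in the spleen of the *Grk2* experiment, 260.2 ± 42.8 in that of the *Ets1* experiment and 195 ± 18.5 in the parenchyma, again without overlap between neighbours. Without mitochondrially encoded genes in the total, *Mx1* was 316 ± 49.8 in the spleen of the *Ets1* experiment and 264 ± 26.9 in the parenchyma (SD, n = 3), and these libraries overlapped.

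*Ms4a4c* was 16.5 ± 3.12 CPM in the spleen controls of the *Grk2* experiment against 2.68 ± 2.12 in those of the *Ets1* experiment and 2.01 ± 1.16 in the parenchyma. *Ifit2* was 15.98 ± 4.49, 5.33 ± 4.40 and 4.47 ± 1.57 in the same order. *Irf7* was 10.8 ± 3.60 there, 5.11 ± 1.20 in the parenchyma and 3.31 ± 2.87 in the spleen of the *Ets1* experiment. In these 3 genes only the first level stood apart, and the lower levels overlapped. Without mitochondrially encoded genes *Irf7* was 14.0 ± 4.67 in the spleen of the *Grk2* experiment and 6.94 ± 1.74 in the parenchyma, and these overlapped.

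*Slfn5* had the lowest level in the parenchyma, at 499 ± 46.5 CPM, against 673 ± 156 and 778 ± 111 in the spleen controls of the *Grk2* and *Ets1* experiments. Its parenchyma controls were all below the spleen controls of the *Ets1* experiment, while the other neighbours overlapped. *Mx2* was 74.9 ± 26.8 and 44.8 ± 6.58 in the spleen of the *Grk2* and *Ets1* experiments and 41.2 ± 4.38 in the parenchyma, and *Usp18* 12.1 ± 5.003, 8.58 ± 1.68 and 6.56 ± 3.63, with overlap between neighbours in both genes. Without mitochondrially encoded genes the order of the lower *Mx2* levels turned, to 55.8 ± 5.199 in the parenchyma and 54.6 ± 8.37 in the spleen of the *Ets1* experiment. The spleen of the *Grk2* experiment, at 96.7 ± 34.7, then overlapped with neither. With these genes in the total it had overlapped with the spleen of the *Ets1* experiment only. *Ifit3* was 3.82 ± 1.15 in the parenchyma and at most 3.42 in a spleen control library. Its parenchyma controls were all above those of the spleen of the *Ets1* experiment.

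**Figure D5:**
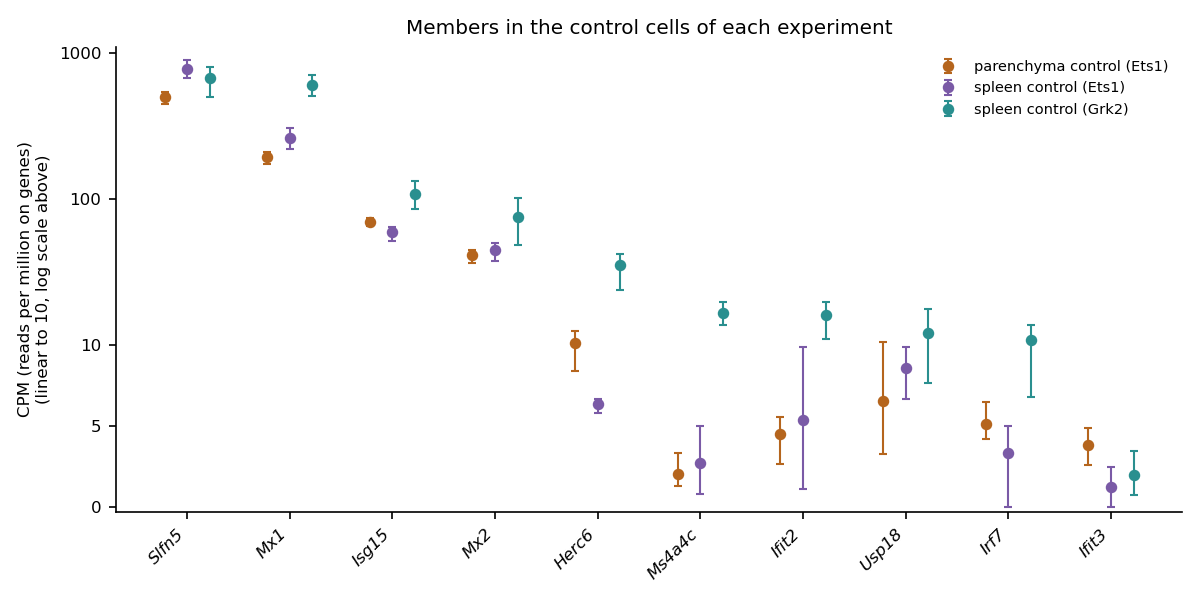
CPM of the 10 genes in the control cells, as the mean of 3 libraries (circle) with the lowest and highest library (bar), on an axis that is linear to 10 and logarithmic above. For *Herc6*, *Isg15*, *Mx1*, *Ms4a4c*, *Ifit2* and *Irf7* the bar of the spleen controls of the *Grk2* experiment lies above both others, which for *Irf7* did not hold without mitochondrially encoded genes in the total.

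The median profile of the 5 genes tested in all 3 tables (*Mx1*, *Mx2*, *Slfn5*, *Isg15* and *Herc6*) over the 9 pair ratios was −0.21, −0.27 and −0.18 in the parenchyma, 0.34, 0.28 and 0.28 in the spleen *Ets1* experiment and −0.26, −0.71 and −0.57 in the *Grk2* experiment. Of the 5, *Herc6* passed the minimum in the spleen *Ets1* experiment through the KO libraries alone. The distance from this profile was taken for the 6207 genes tested in all 3 tables, with the 5 among them. Outside the 10, the nearest by root mean square distance were *Slfn4* (0.134 on the log2 scale), *Mitd1* (0.175), *Zc3h7a* (0.185), *Ifi44* (0.186), *Eif2ak2* (0.190), *Irf2* (0.191), *Tnfrsf14* (0.195), *Rtp4* (0.196), *Clec2g* (0.198) and *Epsti1* (0.199). The median distance over the 6207 genes was 0.506, and 6 of the 10 nearest were in the pathway lists. For scale, 106 of 7002, 102 of 6979 and 105 of 6985 genes tested in the parenchyma, spleen *Ets1* and spleen *Grk2* tables were in these lists. The lists and the 5 genes were chosen with results of these data known, so that nothing follows from this count. Ratios near 0 in low-variance genes also give small distances. *Slfn4*, the nearest, had ratios of −0.25, −0.15 and −0.14 in the parenchyma, 0.23, 0.41 and 0.28 in the spleen *Ets1* experiment and −0.12, −0.57 and −0.29 in the *Grk2* experiment. Reads of close paralogs such as *Slfn4* and *Slfn5* or the Ifitm and Gbp genes could be split or dropped in counting, and their values are uncertain to that extent.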

How the data were processed

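The 18 libraries were prepared by the authors with a 3′ mRNA kit, aligned to Rnor_6.0 with STAR 2.7.2b and counted per gene with HTSeq 1.0.0, per the labels and the methods. The deposited signal values are reads per gene divided by a DESeq2 size factor (poscounts), in 3 tables normalized separately. Whole reads were recovered from them with a tolerance of 0.01. In 8 columns of human values per sample nothing was used, nor were the authors' fold changes.

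Genes with a mean of at least 10 were tested with limma 3.58.1 (lmFit, eBayes with a trend) on log2(value + 1), with replicate number as a block, two-sided, Benjamini-Hochberg adjusted p under 0.05. The prior degrees of freedom, the weight of the variance trend, were infinite in the parenchyma, 22.0 in the spleen *Ets1* and 141 in the spleen *Grk2* table. The SEs thus rest wholly or mostly on that trend and little on the gene's own libraries. Without the trend the prior had 3.25, 3.53 and 3.05. The difference between tissues was tested on pair ratios. The block follows from the co-transfer of KO and control cells in the methods. The labels do not state it, and deviations of same-numbered libraries correlated between −0.003 and 0.175. Data were simulated with 200 genes changed by 1 (log2), a dispersion of 0.02 for every gene and no replicate effect. On these limma recovered 75.5%, 74.5% and 83% in the parenchyma, spleen *Ets1* and spleen *Grk2* tables, and 6.21%, 3.87% and 4.05% of its calls were false. The dispersion was set and not estimated from these libraries, so that these shares do not give the recovery in the real data. Alternatives were no block, pseudocount 5, no filter, upper quartile and quantile scaling, no trend, each replicate left out, edgeR 4.0.16 and DESeq2 1.42.0 on the recovered reads, and levels without mitochondrial genes. The members and lists were chosen with earlier results of these data known. Named were the 10 genes, the edited genes, 8 upstream genes, up to 6 largest rises and falls among called pathway genes of a comparison, and the 10 genes nearest in profile. Another gene, counted among the pathway genes, is not reported here. Promoters came from RefSeq (GRCr8).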

Additional observations from a re-analysis of the deposited data

Results flagged for a closer look

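*Slfn5* had log2 fold changes of opposite sign in the 2 tissues of the *Ets1* experiments. Its log2 fold change was −0.62 in the parenchyma, with all 3 pairs lower, while all 3 spleen pairs were higher. In the spleen it was not called by limma and its groups overlapped. This difference was not tested, since the 10 genes were chosen with these values known.

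For the following pathway genes outside the 10 the effect of *Ets1* deletion differed between parenchyma and spleen by limma on the pair ratios (Benjamini-Hochberg adjusted p under 0.05). The difference, parenchyma minus spleen on the log2 scale, was −0.80 for *Ifi27l2b*, −2.33 for *Mlkl*, −0.88 for *Rtp4* and −0.49 for *Slfn4*. *Mlkl* had a mean of 4.45 normalized counts in the spleen controls and passed the minimum there through the KO libraries alone, and its 3 parenchyma ratios were −0.34, −0.85 and 0.41.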

How the results depend on the processing

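Of 330 values of single genes among the 10, 329 moved by less than the SD of the 3 pair ratios, and *Usp18* in the *Grk2* experiment was at −0.85 with a pseudocount of 5. Many of these values could not move further. Without the block, the filter or the trend the fold change stays the same, and leaving out 1 of 3 pairs cannot shift it by that SD. The count therefore does not measure robustness to these settings. Without mitochondrial genes the controls' levels, as parenchyma over spleen, stayed within the spread of that ratio over the control libraries, but *Mx2* turned from 0.918 to 1.02. The counts of called genes moved more. The block, which compares libraries of the same replicate number, was taken from the co-transfer design. Without the replicate block, called genes were 200 in the parenchyma (366 with it), 71 in the spleen *Ets1* experiment (155) and 19 in the *Grk2* experiment (109), and pathway genes 5 (9), 2 (3) and 0 (11). Without the variance trend they were 3, 0 and 0, with 0 pathway genes in each (23, 7 and 13 at an unadjusted p under 0.05), and 2 and 0 for the difference between tissues. Without a filter they were 212 in the parenchyma and 242 in the spleen *Ets1* experiment. DESeq2 called 90, 48 and 9 genes and 3, 1 and 0 pathway genes, and edgeR 354, 238 and 90.

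With 1 replicate left out, called genes ranged from 165 to 278 in the parenchyma, from 3 to 241 in the spleen *Ets1* experiment, from 9 to 48 in the *Grk2* experiment and from 35 to 205 for the difference between tissues. Pathway genes ranged from 5 to 9, 0 to 3, 0 to 7 and 1 to 8. The median log2 fold change of the 10 genes ranged from −0.33 to −0.084 in the parenchyma, was 0.26 each time in the spleen *Ets1* experiment and ranged from −0.72 to −0.52 in the *Grk2* experiment. The cause of these shifts was not tested. Calls in the *Grk2* experiment were 65 higher and 44 lower, but 37 and 44 with upper quartile and 34 and 41 with quantile scaling. In the spleen *Ets1* experiment they were 71 and 84, but 108 and 83 with upper quartile scaling, and in the parenchyma 159 and 207, but 194 and 160 with edgeR. Genes with under about 15 normalized counts, among them *Ifit3*, *Irf7*, *Usp18* and, outside the *Grk2* experiment, *Ifit2* and *Ms4a4c*, rest on few reads, and *Ifit3*, *Irf7*, *Usp18*, *Ifit2* and *Mx2* changed sign when single replicates were left out in at least 1 experiment, and *Ifit3* in the *Grk2* experiment also with edgeR.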
